A study of Mus musculus with 5 samples.

Results

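Levels of 9 genes of the Lin28/let-7 axis, namely L1td1, Lin28a, Lin28b, Trim71, Hmga1, Hmga2, Igf2bp1, Igf2bp2 and Igf2bp3, were examined in mouse embryos with and without Oct4 in the epiblast. They were taken by gene name from the 49671 genes of the count table, and all 9 were found. They are a hand-picked group, selected with the SO- against SO+ values of these embryos in view. Their own genotype differences are therefore a description: no p-value is given for them, and whether the fit across all genes called a gene is stated for the record and supports nothing. RNA was sequenced from 5 single embryos, 2 SO+ and 3 SO-, all of mixed strain background. SO+ embryos lacked Cre and carried 1 floxed and 1 wild-type Oct4 allele (Sox2Cre-/-; Oct4 fl/+). SO- embryos carried Sox2Cre and 1 floxed and 1 deleted Oct4 allele (Sox2Cre+/-; Oct4 fl/-). Each sample held the hand-dissected epiblast with its visceral endoderm (VE) at about E6.75, before any clear morphological change, and Cre under the Sox2 promoter acts mainly in the epiblast, so VE cells keep Oct4 alleles that are not recombined. The SO+ embryos carry neither the Cre nor a deleted allele, so the effects of Cre itself and of Oct4 loss cannot be told apart. In such a bulk sample, fewer cells of a type and less RNA per cell cannot be told apart.

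Total counts were 27047148 and 27538119 in the SO+ embryos and 1117566 to 4191498 in the SO- embryos. The SO+ mean total was 8.67 times the SO- mean, and the genotypes also differed in the second sequencing index, so library handling and genotype cannot be told apart. Pou5f1, which encodes Oct4, had 920 and 435 CPM (counts scaled to library size) in SO+ embryos 1 and 2, which differed by 2.11 times. The SO- embryos had 27.8, 12.5 and 43.7 CPM. These are 4.10%, 1.85% and 6.44% of the SO+ mean, which matches the genotype labels. Of 9 epiblast markers, 3 were called lower in SO- embryos (Pou5f1, Dnmt3b and Utf1), and the summed level of the 8 markers other than Pou5f1 was 4803 to 5592 CPM in SO+ and 2502 to 3531 CPM in SO- embryos. Dnmt3b made up 57.8% to 71.2% of that sum. The 6 markers that were not called (Sox2, Nanog, Otx2, Fgf5, Pou3f1 and Tdgf1) were split off after their values were seen. They summed to 1099 and 1147 CPM in SO+ and 1031, 989.7 and 1097 CPM in SO- embryos. Among them Sox2, Nanog and Fgf5 had positive log2 fold changes (0.56, 0.02 and 0.38). Otx2, Pou3f1 and Tdgf1 had negative ones (-0.23, -0.84 and -0.40), so this sum holds differences in both directions. Summed VE markers were 3150 and 3535 CPM in SO+ embryos. They were 4717, 4732 and 3023 CPM in SO- embryos 1, 2 and 3, so embryos 1 and 2 lay above both SO+ embryos. None of the 13 VE markers was called by edgeR, DESeq2 or limma-voom, although 11 had a higher estimate in SO- embryos and 5 had an unadjusted edgeR p under 0.05. Summed markers of the extra-embryonic ectoderm (ExE) were 222 to 269 CPM in SO+ and 246 to 325 CPM in SO- embryos, most of it Eomes (209 to 277 CPM over all embryos). The paper also reports Eomes protein in epiblast cells, so this sum does not measure ExE tissue alone. By estimate, 5 of the 6 ExE markers tested were higher in SO- embryos and 1 was lower. Among the 6 ExE markers tested, Hand1 was called higher, from 1.09 and 2.74 CPM in SO+ to 13.5, 24.2 and 11.9 CPM in SO- embryos (log2 fold change 3.04, edgeR adjusted p = 0.00754). Gata3 had a log2 fold change of 2.39 without overlap and was not called (edgeR adjusted p = 0.148). Cdx2, Tfap2c, Ascl2 and Eomes overlapped between genotypes. Elf5 reached 2.62 CPM and Esrrb 0.98 CPM at the highest, and neither was tested. Of 8 maternal, blood and immune markers, Ptprc, Lyz2, Hbb-bs and Prl8a2 had no count in any embryo, and the summed level was 1.93 to 5.25 CPM over all embryos. The part of tissue makeup in the values given here was not tested.

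Lin28a and Lin28b are RNA-binding proteins that bind precursors of the microRNA let-7 and prevent their maturation. Mature let-7 in turn represses mRNAs with matching sites, among them those of Lin28, Trim71, Hmga2 and the Igf2bp family, and the circuit is best known as a timer that keeps early embryonic and stem cells in an immature state. Trim71 is a ubiquitin ligase and mRNA repressor, Hmga1 and Hmga2 are AT-hook proteins that bend DNA in chromatin, and Igf2bp1 to Igf2bp3 bind and stabilise mRNAs, including ones carrying N6-methyladenosine (m6A). L1td1 derives from a LINE-1 retrotransposon protein, binds RNA and is a marker of pluripotent cells.

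All 11 let-7 family loci with a 5p mature sequence in RefSeq (GRCm38.p6) shared 1 seed, bases 2 to 8, which is what ties the 9 genes' 3′ UTRs to a single search. The loci held 9 distinct mature sequences. A set that differs outside or beside the seed is shown, 5′ to 3′, with the seed in capitals.
mmu-let-7a-5p: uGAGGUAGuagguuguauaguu
mmu-let-7d-5p: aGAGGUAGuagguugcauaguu
mmu-let-7g-5p: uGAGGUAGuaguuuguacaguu
mmu-miR-98-5p: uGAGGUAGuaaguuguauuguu
The 12 let-7 family rows of the count table had a total of 0 counts over all embryos. Poly(A)-selected libraries of this kind do not measure mature microRNAs, so let-7 itself was not measured.

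The longest annotated 3′ UTR of each gene was searched for the reverse complement of the seed, CTACCTC, on the transcribed strand (GENCODE M21, GRCm38). At least 1 match was found in 8 of the 9 genes, against 9.02% of the 20898 3′ UTRs searched. Hmga2, Igf2bp1, Lin28b and Trim71 had 4 matches each, a number reached by 0.0574% of all 3′ UTRs. Lin28a had 2, and Hmga1, Igf2bp2 and Igf2bp3 had 1 each. L1td1 had 0 in a 3′ UTR of 364 bases, the shortest of the 9, and Igf2bp1 had the longest at 6337 bases, against a median of 962.5 bases over all genes. A longer UTR holds more matches by its length alone. The genes were grouped for their known place in this circuit, so the share is a description of them. The first match of each gene and all 4 of Hmga2 are shown with the 22 bases before and the 1 base after, in 3′ UTR exons. Capitals mark the seed match, with the next base in capitals where it is A, the form with an A opposite the first base of the microRNA.
Lin28a site 1, chr4:134005189-134005218, - strand: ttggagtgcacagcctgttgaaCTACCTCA
Lin28b site 1, chr10:45381022-45381051, - strand: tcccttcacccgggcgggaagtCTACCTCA
Trim71 site 1, chr9:114512472-114512501, - strand: aaagtacaacattgcctaagtcCTACCTCA
Hmga1 site 1, chr17:27563270-27563299, + strand: catcttctcctctgttcacaaaCTACCTCt
Hmga2 site 1, chr10:120364224-120364253, - strand: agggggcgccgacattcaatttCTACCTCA
Hmga2 site 2, chr10:120362987-120363016, - strand: caataatccccactcctcaataCTACCTCt
Hmga2 site 3, chr10:120362549-120362578, - strand: ggacttcctgatttgcaaggaaCTACCTCc
Hmga2 site 4, chr10:120361691-120361720, - strand: gttgtacaatcaaaacacactaCTACCTCt
Igf2bp1 site 1, chr11:95961778-95961807, - strand: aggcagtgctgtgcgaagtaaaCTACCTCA
Igf2bp2 site 1, chr16:22059473-22059502, - strand: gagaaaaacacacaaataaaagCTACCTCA
Igf2bp3 site 1, chr6:49086787-49086816, - strand: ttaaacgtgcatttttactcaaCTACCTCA
All 4 matches of Trim71 and both of Lin28a were followed by A, as were 3 of 4 in Igf2bp1, 1 of 4 in Hmga2 and Lin28b, and none in Hmga1. Such a match is a run of letters and does not show that let-7 acts there.

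The promoters were searched because Oct4 binds the octamer ATGCAAAT. On either strand it was present in 1.74% of 32851 promoter windows of the same length (250 bases before to 50 after a start site, RefSeq, GRCm38.p6). Of the members, 8 had an entry and Igf2bp1 had none. Hmga1 alone among those 8 held an octamer, which starts 24 bases upstream of the start site in the window shown. The longer Sox-Oct composite motif, present in 0.0365% of all windows, was found in none of the 8. The windows of L1td1 and Hmga1, the genes called different between genotypes, are shown with the octamer, read here on the opposite strand, in capitals.
L1td1 promoter, chr4:98726504-98726803, + strand: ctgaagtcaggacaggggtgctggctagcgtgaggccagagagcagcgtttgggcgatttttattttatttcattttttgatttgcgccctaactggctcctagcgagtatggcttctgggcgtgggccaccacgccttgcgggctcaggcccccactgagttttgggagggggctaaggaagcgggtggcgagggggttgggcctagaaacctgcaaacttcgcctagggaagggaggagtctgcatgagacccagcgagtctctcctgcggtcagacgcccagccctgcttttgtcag
Hmga1 promoter, chr17:27556324-27556623, + strand: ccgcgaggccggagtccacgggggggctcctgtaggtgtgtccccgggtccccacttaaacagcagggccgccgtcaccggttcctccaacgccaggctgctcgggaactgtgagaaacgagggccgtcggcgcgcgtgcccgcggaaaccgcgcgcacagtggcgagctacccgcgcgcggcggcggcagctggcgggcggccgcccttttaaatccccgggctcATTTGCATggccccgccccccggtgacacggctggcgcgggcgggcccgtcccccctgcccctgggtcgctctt
No match in a window says only that these letters are not in it, and no binding was measured in these embryos. The paper examined published Oct4 binding data from epiblast stem cells, which were not used here.

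The genotype comparison set the level of each gene in SO- embryos against that in SO+ embryos. Of the 12067 genes tested with edgeR, 2.35% were called at an adjusted p under 0.05, 1.42% higher in SO- embryos and 0.928% lower. Of the 9 genes, all of which passed the low-count filter, 2 were called, L1td1 and Hmga1, both lower in SO- embryos. Since the genes were chosen by this contrast, nothing is read from that count. CPM did not overlap between genotypes for 5 of the 9 (L1td1, Hmga1, Hmga2, Igf2bp1 and Igf2bp3), against 29.5% of all tested genes. The log2 fold change (SO- over SO+) was positive for 5 and negative for 4, with a median of 0.05 beside -0.0019 over all genes tested. The plot of CPM by embryo shows all 45 values behind these counts.

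**Figure D1:**
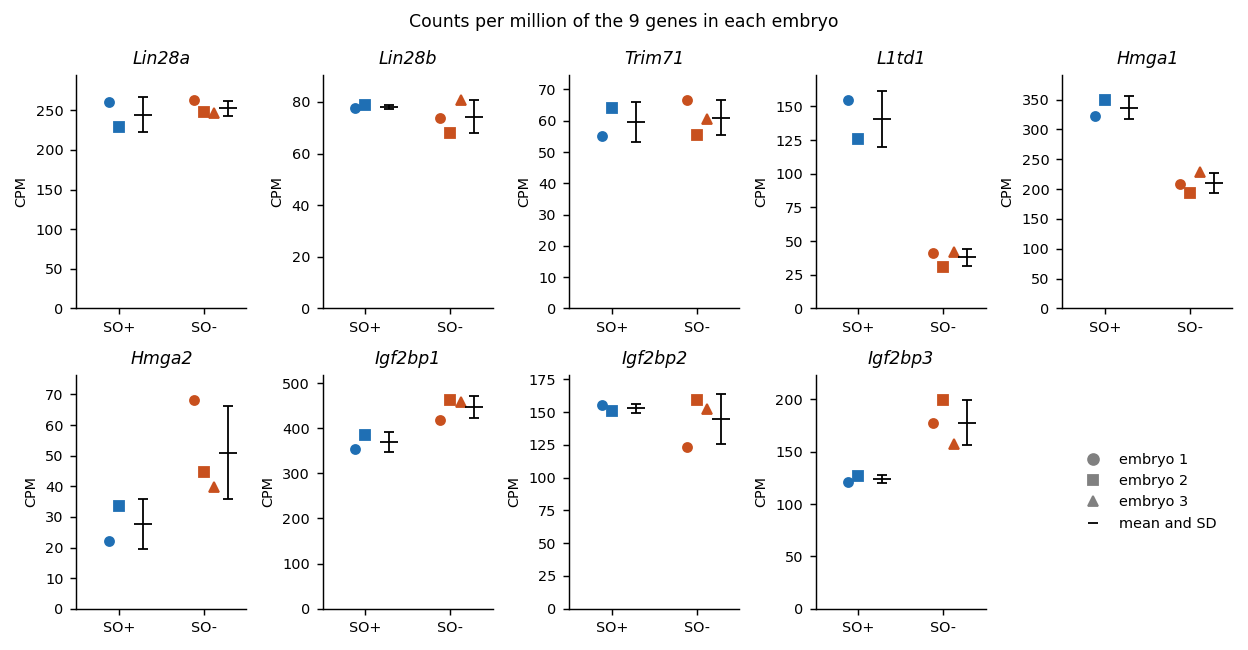
CPM (vertical axes, each from 0) of the 9 genes in the 2 SO+ (blue) and 3 SO- (orange) embryos, with the mean and SD beside each group. L1td1 and Hmga1 lie lower in every SO- embryo, Hmga2, Igf2bp1 and Igf2bp3 lie higher in every SO- embryo, and the other genes overlap between genotypes.

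L1td1 (ENSMUSG00000087166, chr4:98726734-98738480, + strand) had the largest difference of the 9. Counts were 4270 and 3401 in SO+ against 170, 34 and 176 in SO- embryos. These correspond to 155 and 126 CPM in SO+ against 41.1, 30.4 and 42.0 CPM in SO- embryos. Every SO- embryo thus lay under both SO+ embryos, and the lowest SO- value came from the shallowest library. The mean was 140.4 ± 20.7 CPM (SD, n = 2) in SO+ and 37.8 ± 6.44 CPM (SD, n = 3) in SO- embryos, so SO- embryos held 27.0% of the SO+ level, a log2 fold change of -1.84 (SE 0.16). This estimate lay between -1.98 and -1.69 over 13 alternatives.

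L1td1 was also set against the sum of the epiblast markers without Pou5f1, which Dnmt3b and Utf1 make lower in SO- embryos. It amounted to 2.77% and 2.62% of that sum in SO+ against 1.45%, 1.22% and 1.19% in SO- embryos, without overlap. Of the 6 markers that were not called it amounted to 14.1% and 10.96% in SO+ against 3.99%, 3.07% and 3.83% in SO- embryos. Against Lin28a, which also marks pluripotent cells, the ratio of CPM was 0.597 and 0.550 in SO+ and 0.156, 0.123 and 0.171 in SO- embryos. L1td1 was thus lower in SO- embryos relative to each of these. L1td1 and Lin28a were selected with this contrast in view, and the 6 markers were picked by the same genotype comparison. None of these ratios is therefore separate evidence on L1td1.

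The genes whose pattern over the 5 embryos was most like that of L1td1, by the root-mean-square difference of mean-centred log2(CPM + 1) among 9296 genes, were Camkv (0.108), Ndrg1 (0.128) and Rgl3 (0.156). Camkv encodes a kinase-like vesicle protein and Ndrg1 a stress-responsive protein. Their log2 fold changes were -2.10 for Camkv, -1.94 for Ndrg1 and -1.98 for Rgl3. In SO- embryo 2 these genes had only 7, 4 and 3 counts. Such likeness over 5 embryos rests on the genotype difference that named L1td1.

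Lin28a (ENSMUSG00000050966, chr4:134003330-134018841, - strand) lies on the same chromosome as L1td1 but had overlapping levels in the genotypes. Its level was 259.9 and 228 CPM in SO+ against 263, 248 and 246 CPM in SO- embryos. Its log2 fold change was 0.06 (SE 0.11). The estimate ranged from -0.03 without SO+ embryo 2 to 0.14 without SO+ embryo 1. Relative to the epiblast marker sum, Lin28a was 4.65% and 4.76% in SO+ and 9.30%, 9.91% and 6.97% in SO- embryos, with a lower marker sum and overlapping Lin28a levels. Relative to the 6 markers that were not called it was 23.6% and 19.9% in SO+ against 25.6%, 25.05% and 22.4% in SO- embryos, with overlapping ranges.

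Lin28b (ENSMUSG00000063804, chr10:45376620-45486395, - strand), its paralogue, was at 77.6 and 78.7 CPM in SO+ embryos. SO- embryos had 73.8, 68.0 and 80.9 CPM, a range that spans both SO+ values. The log2 fold change was -0.05 (SE 0.14). Per kilobase of exon, Lin28a exceeded Lin28b by 7.60 and 6.58 times in SO+ against by 8.10, 8.27 and 6.91 times in SO- embryos, with overlapping ranges. Lin28a was thus the main Lin28 transcript in both genotypes.

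Trim71 (ENSMUSG00000079259, chr9:114507133-114564369, - strand) is, like Lin28, a classic let-7 target. Its level was 55.1 and 64.2 CPM in SO+ and 66.8, 55.5 and 60.6 CPM in SO- embryos, with overlapping ranges and a log2 fold change of 0.05 (SE 0.16). The sign turned without SO+ embryo 1 (-0.06) and without SO- embryo 1 (-0.03). With Lin28a, Lin28b and Igf2bp2 it made up the 4 of 9 genes with an absolute log2 fold change under 0.1. An SE of 0.11 to 0.16 leaves room for modest differences in any of these.

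Hmga1 (ENSMUSG00000046711, chr17:27556497-27563674, + strand) was the other gene called lower. Its level was 323 and 349.9 CPM in SO+ against 208, 194 and 228 CPM in SO- embryos, so that every SO- value lay under both SO+ values. The mean was 336 ± 19.2 CPM (SD, n = 2) in SO+ and 210.2 ± 17.2 CPM (SD, n = 3) in SO- embryos, or 62.5% of the SO+ level, a log2 fold change of -0.66 (SE 0.11). The call was lost without SO- embryo 1 (log2 fold change -0.67) and without SO- embryo 2 (-0.62), with nearly the same estimate. How reads that match more than 1 place in the genome were counted is not given in the sources used here, which leaves the level of Hmga1 uncertain. Against the epiblast marker sum without Pou5f1, Hmga1 was 5.77% and 7.29% in SO+ and 7.36%, 7.76% and 6.47% in SO- embryos, with overlapping ranges. Dnmt3b and Utf1, both called lower, make that sum lower in SO- embryos. Against the 6 markers that were not called Hmga1 was 29.4% and 30.5% in SO+ and 20.2%, 19.6% and 20.8% in SO- embryos, without overlap. Those 6 were picked by the same genotype comparison, so this ratio is no separate evidence. Whether epiblast content had a part in the Hmga1 difference was not tested. The gene lies 7.94 Mb from Pou5f1 (chr17:35506018-35510772), whose alleles differ between the genotypes by design, and the part of linked sequence was not tested.

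The genes most like Hmga1 by the same measure were Tmem45a (0.0295), Slc25a25 (0.0480) and Ccne1 (0.0514). Ccne1 encodes cyclin E1, which drives entry into S phase, and its log2 fold change was -0.61. Tmem45a had -0.76 and Slc25a25, a mitochondrial carrier, -0.61, and neither of these was called. In SO- embryo 2, Tmem45a had 6 counts and Slc25a25 had 14. As for L1td1, this likeness includes the genotype difference itself.

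Hmga2 (ENSMUSG00000056758, chr10:120361275-120476469, - strand), the textbook let-7 target of the group, differed in the opposite direction from Hmga1. Counts were 605 and 905 in SO+ and 282, 50 and 167 in SO- embryos, or 21.97 and 33.5 CPM against 68.2, 44.7 and 39.8 CPM. All 3 SO- embryos lay above both SO+ embryos, yet embryos of 1 genotype differed by 1.52 times (SO+) and 1.71 times (SO-). The mean was 27.7 ± 8.13 CPM (SD, n = 2) in SO+ and 50.9 ± 15.2 CPM (SD, n = 3) in SO- embryos, 184% of the SO+ level. With a log2 fold change of 0.90 (SE 0.25) the gene was not called. The estimate lay between 0.59 without SO- embryo 1 and 1.24 without SO+ embryo 2, and among these fits the gene was called in the latter. It was also called in 1 of 10 draws with SO+ counts thinned. The ratio of Hmga1 to Hmga2 per kilobase was 46.8 and 33.3 in SO+ against 9.73, 13.8 and 18.3 in SO- embryos, so the Hmga pool held relatively more Hmga2 in every SO- embryo.

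Igf2bp1 (ENSMUSG00000013415, chr11:95957163-96005940, - strand) had the highest CPM of the 9 genes in every embryo. Its level was 354 and 386 CPM in SO+ and 419, 463 and 457 CPM in SO- embryos, with no overlap, and SO- embryos held 121% of the SO+ level. Its difference of 0.28 on the log2 scale (SE 0.10) was not called in any fit.

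Igf2bp3 (ENSMUSG00000029814, chr6:49085223-49214957, - strand) had 121 and 126 CPM in SO+ against 177, 199.5 and 157 CPM in SO- embryos. All 3 SO- values exceeded both SO+ values, and the SO- level averaged 144% of the SO+ level, a log2 fold change of 0.52 (SE 0.13). With genotype as the only term, edgeR did not call it at full depth with all 5 embryos. It was called by DESeq2, by edgeR without SO- embryo 3 and in 3 of 10 draws with SO+ counts thinned.

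Igf2bp2 (ENSMUSG00000033581, chr16:22059009-22163299, - strand) had 155 and 151 CPM in SO+ and 123, 159 and 152 CPM in SO- embryos. SO- embryo 1 was lowest, the ranges overlapped, and the log2 fold change was -0.08 (SE 0.13), turning to 0.01 without that embryo. Its share of the Igf2bp pool per kilobase was 28.99% and 26.9% in SO+ and 20.4%, 23.0% and 23.6% in SO- embryos, without overlap. Igf2bp3 made up 20.5% in both SO+ embryos and 26.6%, 26.1% and 22.1% in SO- embryos. Igf2bp1 held 50.5% and 52.6% in SO+ and 53.0%, 51.0% and 54.3% in SO- embryos, with overlapping ranges. The summed Igf2bp level was 630.0 and 663 CPM in SO+ and 719, 821 and 766 CPM in SO- embryos.

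**Figure D2:**
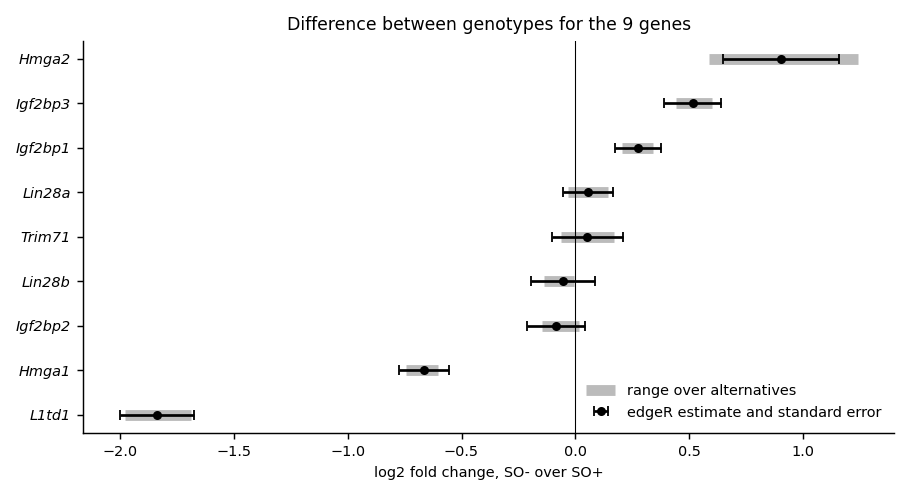
Log2 fold change (SO- over SO+, horizontal axis) of each gene, with the edgeR estimate and standard error in black and the range over the alternatives in grey. L1td1 (-1.84) and Hmga1 (-0.66) are lower and Hmga2 (0.90) has the widest range, from 0.59 to 1.24.

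Levels of different genes were compared per kilobase of exon, which uses the whole annotated exon length and so understates genes that express short isoforms. In SO+ embryos Hmga1 was highest (mean 158 CPM per kb), followed by Lin28a (61.1), L1td1 (44.2), Igf2bp1 (38.2), Igf2bp2 (20.7), Igf2bp3 (15.2), Lin28b (8.62), Trim71 (6.39) and Hmga2 (4.09). Of these neighbours, L1td1 and Igf2bp1 overlapped between embryos. In SO- embryos the order was Hmga1 (98.9), Lin28a (63.2), Igf2bp1 (46.1), Igf2bp3 (21.8), Igf2bp2 (19.6), L1td1 (11.9), Lin28b (8.19), Hmga2 (7.52) and Trim71 (6.53). There Igf2bp3 overlapped Igf2bp2, Lin28b overlapped Hmga2, and Hmga2 overlapped Trim71. L1td1 thus ranked 3 of 9 in SO+ against 6 of 9 in SO- embryos. The summed CPM of all 9 was 1522 and 1543 in SO+ and 1441, 1462 and 1464 in SO- embryos.

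**Figure D3:**
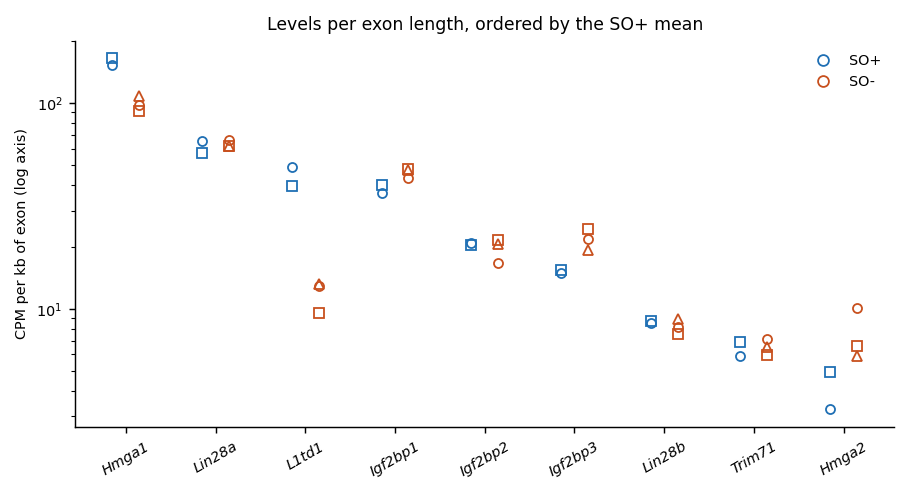
CPM per kb of exon (log axis) for the 9 genes in each SO+ (blue) and SO- (orange) embryo, ordered by the SO+ mean, with circle, square and triangle for embryos 1, 2 and 3. L1td1 lies beside Igf2bp1 in SO+ embryos (means 44.2 and 38.2) and well under it in SO- embryos (11.9 and 46.1), while Lin28a, Lin28b and Trim71 overlap between genotypes.

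Genes of the same pathways outside the 9 were taken from 7 lists of 126 genes, of which 122 were tested and 5 were called (4.10%, against 2.35% of all tested genes), 2 higher and 3 lower. These lists, too, were chosen with earlier results of these data known. The share called and the adjusted p-values given below for their genes are therefore a description. Among 23 tested genes of let-7 processing and decay (Drosha, Dicer1, the Argonautes and others) none was called by edgeR, DESeq2 or limma-voom, and 1 had an unadjusted edgeR p under 0.05. Their median log2 fold change was -0.05. The largest estimates there were Tnrc6c, an Argonaute partner (-0.98, edgeR adjusted p = 0.0513), and Zcchc11, which uridylates Lin28-bound let-7 precursors (0.25, edgeR adjusted p = 0.686).

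Of 26 tested let-7 targets other than the 9 genes, 2 fell and none rose by edgeR, and the median was 0.04. An unadjusted edgeR p under 0.05 was found for 11 of them, 7 with a higher and 4 with a lower estimate in SO- embryos, and 13 of the 26 did not overlap between genotypes, against 29.5% of all tested genes. Mycn, a Myc family transcription factor, was at 139 and 154 CPM in SO+ and 78.6, 73.4 and 89.2 CPM in SO- embryos (log2 fold change -0.85, SE 0.13, edgeR adjusted p = 0.00426). Ccnd1, encoding cyclin D1, was at 168 and 150.3 CPM in SO+ and 96.5, 99.3 and 98.1 CPM in SO- embryos (-0.70, SE 0.12, edgeR adjusted p = 0.00754). Arid3a had a larger estimate with more spread (1.02, edgeR adjusted p = 0.303). By estimate alone, 15 of the 26 were higher and 11 lower in SO- embryos.

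Igf2bp proteins were named for binding Igf2 mRNA, and of 5 tested client mRNAs Igf2, a fetal growth factor, rose, and 2 had an unadjusted edgeR p under 0.05. It had 37.8 and 41.3 CPM in SO+ and 101, 103 and 61.3 CPM in SO- embryos (log2 fold change 1.14, SE 0.20, edgeR adjusted p = 0.0103). H19, the noncoding RNA of the neighbouring imprinted locus, had an estimate of 0.68 (edgeR adjusted p = 0.0915). It was called by DESeq2 (adjusted p = 0.0112) and by edgeR without SO- embryo 3. It was not called by limma-voom, or by edgeR without SO- embryo 1 or without SO- embryo 2. None of 14 protein partners of Igf2bp particles was called by edgeR, DESeq2 or limma-voom, with 1 at an unadjusted edgeR p under 0.05, a median of -0.02 and largest estimates for Stau1 (0.37, edgeR adjusted p = 0.247) and Dhx9 (0.32, edgeR adjusted p = 0.482). The same held for 18 m6A writers, erasers and readers, of which none was called by any of these tools and 1 had an unadjusted edgeR p under 0.05. Their largest estimates were Rbm15 (-0.37, edgeR adjusted p = 0.554) and Mettl14 (0.32, edgeR adjusted p = 0.363).

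None of 11 other HMG proteins was called by edgeR or limma-voom, 1 was called by DESeq2, and 2 had an unadjusted edgeR p under 0.05. Hmgn2, a nucleosome-binding protein, had an estimate of -0.71 (edgeR adjusted p = 0.135) that moved to -1.15 and was called without SO+ embryo 2, and to -0.10 without SO+ embryo 1, and Hmgb3 one of 0.52 (edgeR adjusted p = 0.0710). Of 25 other RNA-binding regulators of pluripotent and germ cells, 1 rose and 1 fell, and 4 had an unadjusted edgeR p under 0.05. Zfp36l1, which promotes decay of AU-rich mRNAs, was at 44.1 and 66.8 CPM in SO+ and 103, 123 and 91.9 CPM in SO- embryos (log2 fold change 0.92, SE 0.19, edgeR adjusted p = 0.0232). Rbpms2 was at 928 and 807 CPM in SO+ and 589, 654 and 664 CPM in SO- embryos (-0.44, SE 0.10, edgeR adjusted p = 0.0355). Nanos1, at 6.54 CPM or less in every embryo, had an estimate of -1.01 (edgeR adjusted p = 0.556) that moved to -0.31 without SO+ embryo 1 and to -0.52 without SO- embryo 3. Mycn, Ccnd1, Igf2, Zfp36l1 and Rbpms2 all lost the call without SO- embryo 1 and again without SO- embryo 2, with estimates in the same direction. Igf2, Zfp36l1 and Rbpms2 also lost it with limma-voom, Zfp36l1 and Rbpms2 without SO+ embryo 1, and Rbpms2 without SO- embryo 3.

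Across the tested genes outside the 9, the difference between genotypes was set beside let-7 seed matches in the 3′ UTR. The median log2 fold change was -0.00094 for 10071 genes with 0 matches, 0.020 for 1065 genes with 1 match and 0.040 for 146 genes with 2 or more. The quartiles were -0.19 and 0.21, -0.18 and 0.27, and -0.15 and 0.28, so the medians differed by far less than the spread within each class. The share called was 2.35% (237 genes), 2.82% (30 genes) and 3.42% (5 genes). The median 3′ UTR length was 1081, 2217 and 3648.5 bases. Both the median and the share called were in the order of the number of matches, with no test made of either, and UTR length moved in the same order. Whether length had a part in these values was not tested.

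**Figure D4:**
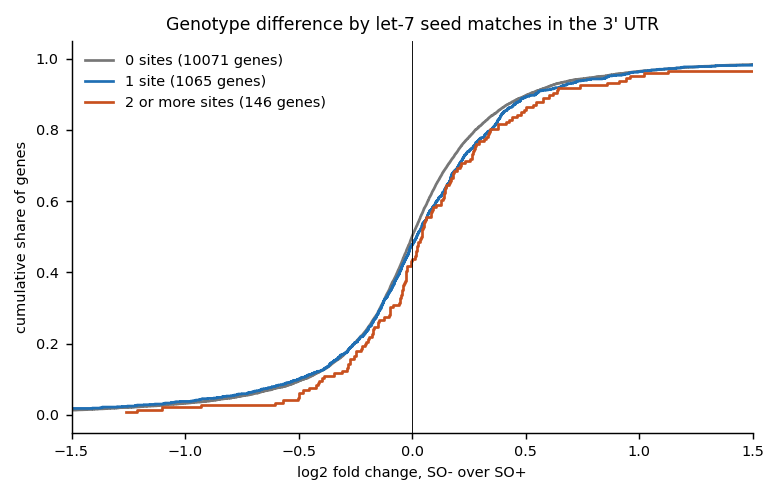
Cumulative share of genes (vertical axis) by log2 fold change, SO- over SO+ (horizontal axis, shown from -1.5 to 1.5), for tested genes outside the 9 with 0, 1 or 2 or more let-7 seed matches in the 3′ UTR. The medians are -0.00094, 0.020 and 0.040.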

How the data were processed

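RNA of 5 single embryos (2 SO+, 3 SO-) was amplified with SmartSeq2. Per the labels and the paper's methods, reads were aligned with STAR (build GRCm38) and assigned to genes with HTSeq. The authors deposited raw counts of 49671 genes. Whether counting used strand is not given in the sources used here. Embryos were grouped by genotype label and taken as separate samples. Fold changes were fitted in R 4.3.3 with edgeR 4.0.16 (TMM scaling, the filterByExpr filter, a quasi-likelihood F test between genotypes with no other term, Benjamini-Hochberg over 12067 genes, threshold 0.05), checked on simulated data. SEs were obtained by dividing the size of each log2 fold change by the root of its F value. CPM used total counts. Depth sets the precision: 3 counts equal 0.109 CPM in SO+ embryo 1 and 2.68 CPM in SO- embryo 2, and cover counting error only. Gene positions, exon lengths and 3′ UTRs came from GENCODE M21, promoters and microRNAs from RefSeq.

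The members and lists were chosen with earlier results of these data known. Named genes are the 9 members, Pou5f1, called list genes, the 2 largest estimates of each list, and the 3 genes nearest each called member (mean log2 CPM of at least 3, pseudocount 1). Markers and other list genes named as examples, or for having no counts, were added after their values were seen. Alternatives were DESeq2 1.42.0, limma-voom (limma 3.58.1), other scaling and filters, a replicate block, each embryo left out, and SO+ counts thinned to the mean SO- total (10 draws). A further result is not reported here.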

Additional observations from a re-analysis of the deposited data

How the results depend on the processing

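L1td1 kept its call in every alternative run, and Hmga1 in all but those without SO- embryo 1 and without SO- embryo 2. No value of a called gene changed sign among the 9 genes and the named list genes, for which alternatives were run. The number of genes called (283) was 91 with limma-voom and 929 with the replicate block, and 35 to 573 with an embryo left out (46 without SO- embryo 1, 35 without SO- embryo 2, 180 without SO+ embryo 1, 573 without SO+ embryo 2). Of the 9 genes (2 called), 4 were called with the replicate block (Hmga2 and Igf2bp3 besides) and 1 to 3 with an embryo left out. Of the list genes (5 called), 8 were called by DESeq2, 2 by limma-voom, 14 with the replicate block and 0 to 11 with an embryo left out. The count of 0 came from edgeR without SO- embryo 1 or without SO- embryo 2, where 18 and 13 list genes had an unadjusted p under 0.05, and other tools were not run on those subsets. Why these counts moved was not tested. The labels do not say that the replicate numbers pair the embryos, which are different animals. Deviations from the genotype means correlated at -0.0085 and 0.122 over genes for numbers 1 and 2. The deviations of the 2 SO+ embryos mirror each other, so these are not separate checks. They cannot show whether embryos shared a litter or handling. Counting error is largest in SO- embryo 2, where L1td1 had 34 counts, and 2 SO+ embryos give little information on the spread within that genotype.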
